A study of Mus musculus with 6 samples.

Results

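ESRRB binding was compared between 2 conditions of E14 mouse embryonic stem cells by ChIP-seq, which sequences DNA recovered with an antibody to the protein. Cells grown in N2B27 medium with 2iL (3 µM CHIR99021, which inhibits the kinase GSK3, 1 µM PD0325901, which inhibits the kinase MEK, and the cytokine LIF) were set against cells kept for 96 h in N2B27 without 2iL. All cells were of the single line E14 and were fixed with 1% formaldehyde, with 1 ESRRB library per condition and no replicate. Every comparison below therefore describes these 2 libraries, with no test and with 95% Clopper-Pearson intervals that cover counting error only. A region was a unique interval of the authors' peak list, described by its highest summit. The lists held 13767 regions in 2iL and 7018 at 96 h, together 20785 of the 31755 regions in the 3 lists of the series. Regions that overlapped by at least 1 bp were called shared, and the others 2iL-only or 96h-only.

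ESRRB is an orphan nuclear receptor that binds DNA without a known natural ligand, at the estrogen-related receptor element, a core of AGGTCA with a short extension before it. In naive embryonic stem cells it acts beside NANOG, KLF4, TFCP2L1 and other factors that hold the naive state. Its expression is known to decline when cells leave that state after 2iL withdrawal. The related receptors ESRRA and ESRRG are known regulators of mitochondrial genes in tissues of high energy use.

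Sequences are shown first for promoters that had an ESRRB summit in them and held the element, since no region sequence could be read elsewhere. The element was searched as TNAAGGTCA on both strands in the 32851 RefSeq promoters of 20 chromosomes, each running from 250 bases before to 50 bases after a gene start (build GRCm38.p6). It was present in 1.28% of all promoters. Among promoters with a summit of a shared 2iL region it was present in 14 of 163 (8.59%, interval 4.78 to 14.0). For 2iL-only summits it was present in 8 of 244 (3.28%, 1.43 to 6.36), and for 96h-only summits in 6 of 56 (10.7%, 4.03 to 21.9). Some promoters overlap and share a region and an element, such as the pair of Naa50 starts and Rsf1os2 with Clns1a. The promoters came from 151, 217 and 51 regions, so the intervals, which treat promoters as independent, are too narrow. The core AGGTCA alone, which the longer element contains, was present in 16.3% of all promoters, and in 54.0%, 40.2% and 44.6% of the promoters of those classes. The intervals of the 3 classes overlap for the longer element, and for the core those of the shared (46.0 to 61.8) and 2iL-only (34.0 to 46.6) promoters overlap narrowly. Atp5g3, which encodes a subunit of the ATP synthase ring, Myh7b, a myosin heavy chain gene, and Sgk1, a kinase gene, show shared promoters. Glrx3, a glutaredoxin gene, shows a 2iL-only promoter, and Hcn2, a pacemaker channel gene, and Sgms1, a sphingomyelin synthase gene, show 96h-only promoters. These 6 genes were picked with their values known. Each line gives the 250 bases before the gene start, read along the gene, with the element in capitals on whichever strand it lies.
Atp5g3 (shared, chr2:73911327-73911576, minus strand): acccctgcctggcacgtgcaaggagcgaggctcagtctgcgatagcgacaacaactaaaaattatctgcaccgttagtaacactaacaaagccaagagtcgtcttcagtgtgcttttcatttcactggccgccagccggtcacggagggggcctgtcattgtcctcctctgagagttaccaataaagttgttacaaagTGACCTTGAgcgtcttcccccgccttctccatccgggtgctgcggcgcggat
Myh7b (shared, chr2:155610993-155611242, plus strand): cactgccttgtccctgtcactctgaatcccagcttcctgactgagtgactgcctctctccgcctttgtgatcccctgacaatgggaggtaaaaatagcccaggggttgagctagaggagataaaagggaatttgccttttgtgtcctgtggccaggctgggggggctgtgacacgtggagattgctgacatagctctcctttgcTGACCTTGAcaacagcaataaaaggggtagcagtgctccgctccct
Sgk1 (shared, chr10:21978422-21978671, plus strand): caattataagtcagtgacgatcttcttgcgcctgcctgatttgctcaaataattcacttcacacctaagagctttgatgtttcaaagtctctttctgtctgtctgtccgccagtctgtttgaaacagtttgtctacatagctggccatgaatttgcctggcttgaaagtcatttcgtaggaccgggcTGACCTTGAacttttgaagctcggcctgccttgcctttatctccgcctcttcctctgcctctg
Glrx3 (2iL-only, chr7:137437323-137437572, plus strand): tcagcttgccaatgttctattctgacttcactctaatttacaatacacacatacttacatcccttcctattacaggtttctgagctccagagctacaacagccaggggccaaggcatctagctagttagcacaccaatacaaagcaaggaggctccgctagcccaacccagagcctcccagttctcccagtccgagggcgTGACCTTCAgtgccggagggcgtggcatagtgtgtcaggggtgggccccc
Hcn2 (96h-only, chr10:79716384-79716633, plus strand): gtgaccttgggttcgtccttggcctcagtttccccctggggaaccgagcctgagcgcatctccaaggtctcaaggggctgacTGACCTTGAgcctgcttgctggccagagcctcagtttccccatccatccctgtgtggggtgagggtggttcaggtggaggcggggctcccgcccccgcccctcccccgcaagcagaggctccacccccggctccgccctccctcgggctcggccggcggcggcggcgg
Sgms1 (96h-only, chr19:32349317-32349566, minus strand): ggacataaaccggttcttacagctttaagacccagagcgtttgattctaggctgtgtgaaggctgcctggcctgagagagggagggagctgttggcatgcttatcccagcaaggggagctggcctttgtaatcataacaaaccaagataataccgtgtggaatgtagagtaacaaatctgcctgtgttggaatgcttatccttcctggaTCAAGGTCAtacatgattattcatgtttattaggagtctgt

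The summits at these promoters lay 8 to 208 bases before the gene start. At Atp5g3 the region (chr2:73910151-73911859) had a fold enrichment of 13.8 with 217 reads at its summit in 2iL, and 15.0 with 272 reads at 96 h. At Myh7b the folds were 9.12 (66 reads) and 7.01 (47 reads), and at Sgk1 5.88 (52 reads) and 4.17 (28 reads). The Glrx3 region was weak, with a fold of 3.75 and 42 reads in 2iL, and the same window held no called region at 96 h. The Hcn2 region had a fold of 9.07 and 91 reads at 96 h, which placed it in the strongest 20% of that list, and the Sgms1 region 4.85 and 36 reads. A fold here is the authors' ratio of summit reads over background within 1 library, so values of the 2 libraries set side by side are not a tested change.

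The second set of sequences belongs to embryonic stem cell microRNAs, which repress messenger RNAs that match their seed, bases 2 to 8, printed in capitals. They were chosen after their regions were seen. The miR-290 cluster is the leading microRNA cluster of naive cells, the miR-302 cluster of primed cells, and the miR-106a cluster lies on the X chromosome.
miR-294-3p (miR-290 cluster): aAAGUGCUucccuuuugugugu
miR-295-3p (miR-290 cluster): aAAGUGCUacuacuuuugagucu
miR-290a-3p (miR-290 cluster): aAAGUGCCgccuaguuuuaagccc
miR-302b-3p (miR-302 cluster): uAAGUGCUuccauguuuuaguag
miR-302d-3p (miR-302 cluster): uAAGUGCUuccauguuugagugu
miR-106a-5p (miR-106a cluster): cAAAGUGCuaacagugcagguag
miR-20b-5p (miR-106a cluster): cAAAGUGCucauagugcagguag

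The seed AAGUGCU was common to miR-294, miR-295, miR-302b and miR-302d, and AAAGUGC to miR-106a and miR-20b, but ESRRB regions at their loci differed between the lists. At the miR-290 cluster on chromosome 7 the region just before the hairpins (chr7:3217256-3218328) had a fold of 12.4 with 164 reads in 2iL, and its 96 h partner (chr7:3216171-3218093) had 12.7 with 180 reads. The region just past the last hairpin (chr7:3221072-3223115) had 7.28 with 78 reads and 7.50 with 81 reads. Of the 6 regions of 2iL within 20 kb of the cluster, 5 were called at 96 h. The region at the miR-302 cluster (chr3:127544690-127545146, inside Larp7) had a fold of 4.004 and 45 reads in 2iL and was 2iL-only. It was in the weakest 20% of 2iL, where 82.4% of all regions were 2iL-only. At the miR-106a cluster a 96h-only region (chrX:52746327-52747268) had a fold of 8.33 and 56 reads, and a 2iL-only region (chrX:52758782-52759627) had 9.26 and 55 reads. A shared region of the same locus (chrX:52760314-52760931) had a fold of 11.4 in 2iL and 4.74 at 96 h. Across the 1005 hairpins of the RefSeq table, 100 regions of 2iL lay within 5 kb of one. Of them 41 (41%, interval 31.3 to 51.3) were called at 96 h, beside 35% of all 2iL regions. Of the 55 regions of 96 h near a hairpin, 15 (27.3%, 16.1 to 41.0) were 96h-only, beside 30.5% of all. Both intervals include the share over all regions.

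Of the 13767 regions of 2iL, 4822 were called at 96 h (35%, interval 34.2 to 35.8) and 8945 were 2iL-only. Of the 7018 regions of 96 h, 2139 were 96h-only (30.5%, interval 29.4 to 31.6). A region missing from a list may hold ESRRB too weak to be called. The median number of reads at the highest summit was 51 in 2iL and 45 at 96 h, the median fold was 5.88 and 4.82, and the lowest local background, a floor that moves with depth, was 5.04 and 5.84 reads. How far depth set the calls was not tested. Regions covered 15.2 Mb in 2iL and 6.85 Mb at 96 h.

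Shared regions were the stronger and wider ones in both lists. In 2iL the median fold was 7.28 for shared regions and 5.40 for 2iL-only regions, the median reads 70 and 45, and the median width 1159 and 914 bp. At 96 h the median fold was 5.36 for shared and 4.09 for 96h-only regions, with 52 and 36 reads and widths of 946 and 750 bp. In the 2iL list, regions of more than 1 summit made up 45.6% of the shared and 37.6% of the 2iL-only regions. In the 96 h list they made up 34.0% of the shared and 25.7% of the 96h-only regions.

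**Figure D1:**
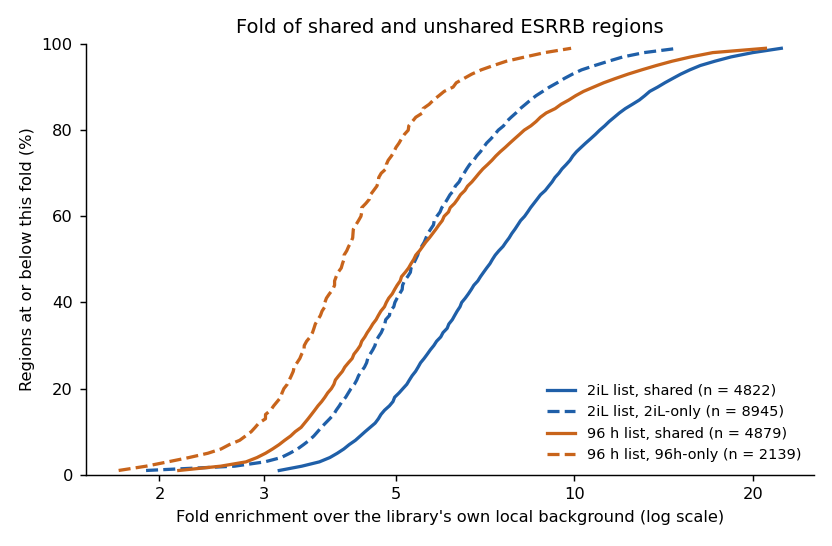
Share of regions (y axis, %) at or below a fold enrichment (x axis, log scale) for shared regions (solid lines) and regions called in 1 list only (dashed lines) in 2iL (blue) and at 96 h (orange), from the 1st to the 99th percentile. The shared curve lies to the right of the unshared curve in each list, with medians of 7.28 against 5.40 in 2iL and 5.36 against 4.09 at 96 h.

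The share called again climbed with the rank of a region in both lists. The directions cannot be set against each other, since a 96 h region met a list of 13767 regions and a 2iL region a list of 7018. With each list cut into 5 strength groups of 20% by fold, from weakest to strongest, 17.6%, 23.4%, 30.6%, 41.3% and 62.2% of 2iL regions were called at 96 h. In the other direction 49.8%, 57.3%, 67.5%, 80.6% and 92.4% of 96 h regions were called in 2iL. All of the 100 strongest regions of 96 h were called in 2iL, and 88 of the 100 strongest of 2iL were called at 96 h. Among the 1000 strongest the counts were 941 of 1001 (tied folds included) for 96 h and 736 of 1000 for 2iL. In the strongest 20% of 2iL, with a fold of at least 8.71, 1042 regions were 2iL-only. In the strongest 20% of 96 h, with a fold of at least 7.31, 106 regions were 96h-only. Over each whole list, regions with several summits, which are also wider, had higher shares than those with 1. In the strongest 20% of 2iL the share was 59.1% (56.6 to 61.6) for 1 summit, 63.3% (59.8 to 66.7) for 2, 67.7% (62.1 to 72.9) for 3 and 73.5% (66.5 to 79.7) for 4 or more. The strongest 20% of 96 h showed no such rise, with 92.1%, 92.0%, 97.2% and 88.5% (77.8 to 95.3) for the same classes.

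**Figure D2:**
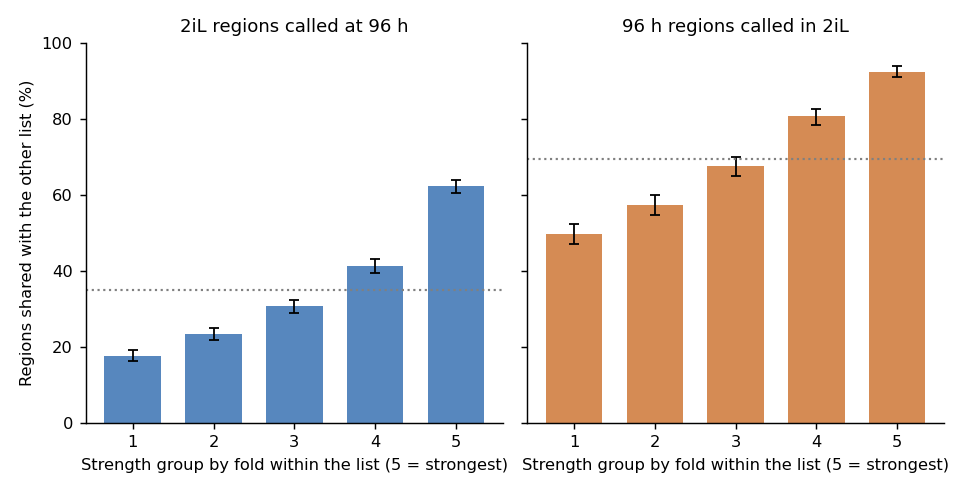
Share of regions (y axis, %) that were called in the other list, by strength group within the list (x axis, 5 is the strongest), with 95% counting intervals. Dotted lines mark the share over all regions, and the bars run from 17.6% to 62.2% for 2iL and from 49.8% to 92.4% for 96 h.

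Regions at gene ends (summit at most 1 kb from the start or end of a coding gene) were weaker in 2iL than other regions and yet were called again more often. Their median fold was 5.17, against 5.83 for regions inside genes and 6.20 for regions beyond 50 kb of any gene. At 96 h 44.6% of them were called (664 of 1490, interval 42.0 to 47.1), against 32.0% (30.8 to 33.2) inside genes and 32.6% (30.8 to 34.6) beyond 50 kb. Gene ends also had the highest share within the strongest 20%, at 79.1% (73.0 to 84.4), against 59.8% (56.8 to 62.7) inside genes and 57.5% (53.4 to 61.5) beyond 50 kb, and within the weakest 20%, at 23.2% (19.5 to 27.3), against 15.1% (13.1 to 17.3) and 14.6% (11.2 to 18.7). Regions outside genes but within 50 kb of one, 4160 in all with a median fold of 6.07, lay between, at 37.1% (35.7 to 38.6) over all, 64.2% (60.9 to 67.4) in the strongest 20% and 19.4% (16.6 to 22.4) in the weakest. Regions at gene ends stood over a higher background, with a median of 53 reads at a lower fold, so strength groups by fold are not groups by reads. Among all shared 2iL regions 13.8% lay at gene ends, among 2iL-only regions 9.23% and among 96h-only regions 11.6%.

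Shared regions had their summits at nearly the same base. In 4618 pairs, each of 1 region in 2iL and 1 at 96 h, the median distance between the highest summits was 30 bp. It was at most 50 bp in 70.1% of pairs and over 500 bp in 159 pairs (3.44%). The rank of fold was only partly alike. Over the 4822 shared regions of 2iL and their highest 96 h partners, Spearman's rank correlation was 0.48, and among the 1635 one-to-one pairs of the strongest 20% of 2iL it was 0.33. These are descriptions across regions of 2 libraries. In 782 pairs both regions were in the strongest 20% of their list. In 60 pairs the region was in the strongest 20% of 2iL and the weakest 20% of 96 h, and in 23 the reverse.

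**Figure D3:**
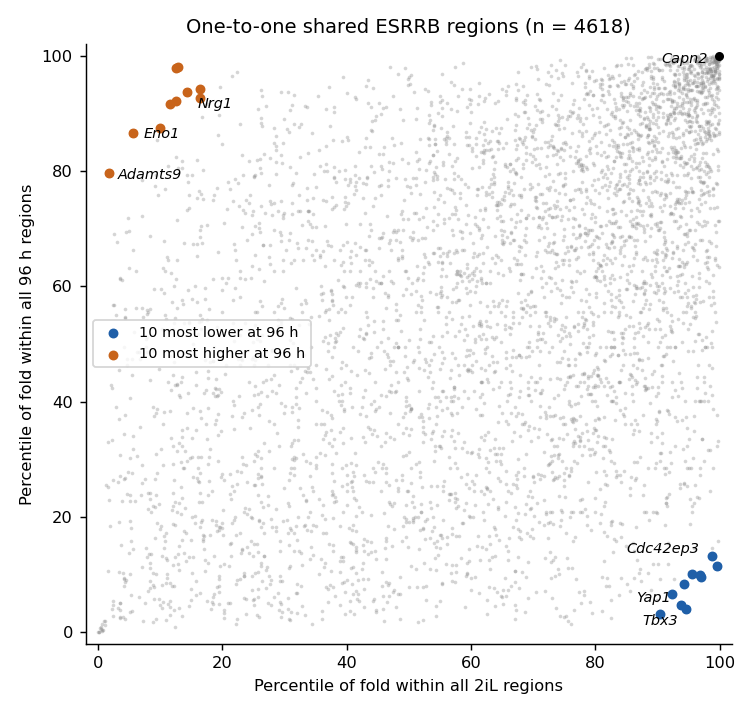
Percentile of fold within the 2iL list (x axis) and within the 96 h list (y axis) for the 4618 one-to-one shared regions (grey points), with the 10 pairs of much lower percentile at 96 h in blue and the 10 of much higher percentile in orange. Points fill the square and are dense at the upper right, where the region inside Capn2 lies, and Tbx3, Yap1 and Cdc42ep3 lie at the lower right.

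The strongest shared regions were chosen by the sum of their percentiles, so their high rank in both lists is fixed by the choice. The region inside Capn2, a calpain protease gene (chr1:182500265-182501767), had 411 reads and a fold of 32.4 in 2iL (rank 11), and 423 reads and 60.9 at 96 h (rank 1). The reads were nearly equal and the background was 11.7 reads in 2iL and 5.96 at 96 h, so the higher fold came with a lower background. Near Tsr2, a ribosome assembly gene (chrX:151123248-151124994, 27.6 kb away), the folds were 29.2 and 38.9. Inside Ccdc138, a coiled-coil protein gene (chr10:58530664-58532945), they were 23.9 and 32.5, and inside Fat1, a giant protocadherin gene (chr8:44978354-44979947), 23.5 and 22.8. A region 106 kb from Sox2, a core pluripotency factor gene (chr3:34755135-34758860), had folds of 27.3 and 24.3. Its highest summits lay 1457 bp apart, in an interval of 4 summits. The others of these 10 pairs lay nearest Pld1, Pdgfa, Myrip, Asmt and Gm46617, each with a lower fold at 96 h. In that order their folds were 48.2 and 47.6, 40.7 and 38.9, 46.3 and 32.9, 39.1 and 29.6, and 24.4 and 23.1.

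The 10 pairs of the largest drop in percentile from 2iL to 96 h lay near genes of varied function. The region 28.3 kb from Tbx3, a T-box factor of the naive network (chr5:119712485-119713613), had a fold of 13.1 with 166 reads in 2iL (94.5 percentile) and 2.69 with 48 reads at 96 h (4.01 percentile). Inside Yap1, which encodes the Hippo pathway coactivator (chr9:7994953-7996750), the fold was 12.7 with 76 reads and then 2.78 with 22 reads. Inside Cdc42ep3, an effector of the GTPase CDC42 (chr17:79341932-79343586), it was 21.3 with 142 reads and then 3.24 with 43 reads. The region 3.70 kb from Cdc7, a kinase gene of replication origins (chr5:106959035-106961064), had folds of 15.1 and 3.16. The region inside Pdzrn3, a ubiquitin ligase gene (chr6:101271486-101273887), had 18.1 and 3.33. The others lay nearest Ercc6l2, Bnc2, Ubqln1, Ppp1cc and Kctd14. In the pairs near Cdc7 and Bnc2 the highest summits lay 1321 and 1338 bp apart, so their folds are not of the same site. Reads at the summit were fewer at 96 h in all 10. The background was higher at 96 h in 8 of them, all but Ubqln1 and Pdzrn3, and at Cdc42ep3 it was 5.71 reads in 2iL and 12.6 at 96 h.

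The 10 pairs of the largest difference in the other direction also lay near genes of varied function. The region 3.01 kb from Eno1, the glycolytic enolase gene (chr4:150251507-150252397), had a fold of 3.53 with 46 reads in 2iL (5.59 percentile) and 8.59 with 97 reads at 96 h (86.6 percentile). Inside Nrg1, a ligand gene for ERBB receptors (chr8:32293100-32294226), the fold was 4.14 with 42 reads and then 11.2 with 122 reads. Inside Kat6a, a histone acetyltransferase gene (chr8:22892725-22893278), it was 4.05 with 36 reads and then 10.4 with 70 reads. The region 33.4 kb from Gm41291, a predicted gene (chr15:34047962-34048683), had folds of 4.05 and 15.5, with 28 and 105 reads. Others lay nearest Zfp516, H2bc22, Adamts9, Sdk1 and Ywhaq, with folds of 2.83 to 4.26 in 2iL and 7.25 to 15.9 at 96 h. Reads at the summit were more at 96 h in all 10, and the background was lower at 96 h in all but Nrg1.

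The strongest 2iL-only regions were among the strongest of all 2iL regions. The region 7.70 kb from Bach1, a heme-regulated transcription repressor gene (chr16:87690635-87692027), had a fold of 28.0 and 208 reads and ranked 20 of 13767. Its nearest 96 h region was 335 kb away. The region inside Cntnap2, a neurexin family adhesion gene (chr6:47225350-47226167), had a fold of 25.1 and 151 reads, with a 96 h region 32.9 kb away. The region 5.34 kb from Ffar2, a receptor gene for short fatty acids (chr7:30827297-30829658), had 24.1 and 231 reads, and that inside Lipc, the hepatic lipase gene (chr9:70890641-70892007), 23.9 and 200 reads. The region 74.8 kb from Cops8, a COP9 signalosome gene (chr1:90527536-90528873), had 23.2 and 251 reads. The remaining 5 lay nearest Fam189a2, Pdcd6ip, Lyzl4, Slco5a1 and Ralgps2, with folds of 21.0 to 22.6, and no 96 h region was within 30 kb of any of the 10. Over all 2iL-only regions the median distance to a 96 h region was 71.5 kb, and 14.4% had one within 10 kb.

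The strongest 96h-only regions reached lower ranks in their own list, but each 96 h region met the longer 2iL list. These ranks therefore cannot be set against those of the 2iL-only regions. The region inside Kndc1 (chr7:139936242-139938202), which is 6499 bp from the pluripotency gene Utf1, had a fold of 14.3 and 142 reads and ranked 209 of 7018. The next 2iL region was 7.30 kb away. At Utf1 itself the 2 shared regions had folds of 3.23 (50 reads) and 6.38 (80 reads) in 2iL, and 3.58 (50 reads) and 3.20 (53 reads) at 96 h. The region inside Cubn, a vitamin B12 receptor gene (chr2:13338453-13339669), had a fold of 14.0 and 95 reads, and its nearest 2iL region was 428 kb away. Inside Kcnh1, a potassium channel gene (chr1:192454585-192455638), the values were 13.0 and 98 reads. Inside Pde7b, a cyclic AMP phosphodiesterase gene (chr10:20400042-20401279), they were 11.8 and 106 reads. Inside Calm2, a calmodulin gene (chr17:87435496-87437601), they were 11.5 and 78 reads. The others lay nearest Elfn1, Igsf3, Nuak1, Ccsap and Aire, with folds of 11.1 to 12.7. Over all 96h-only regions the median distance to a 2iL region was 36.7 kb, and 22.9% had one within 10 kb, in a 2iL list of more regions than the 96 h list.

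Counted by gene, 12250 protein-coding genes had a 2iL region within 50 kb of their span and 8657 had a 96 h region. Of the former, 4481 had none at 96 h (36.6%), and of the latter 888 had none in 2iL (10.3%). The share with none at 96 h was 53.6% of genes with 1 region in 2iL, 34.7% with 2, 20.8% with 3, 10.99% with 4 and 5.93% with 5 or more. By nearest gene, those with the most 2iL regions and none at 96 h were Susd6 and Mical3, with 8 each. The regions at Susd6, a sushi domain gene on chromosome 12, had folds of 1.62 to 9.93 and 12 to 83 reads. Those at Mical3, an actin oxidase gene on chromosome 6, had folds of 3.89 to 7.05 and 26 to 92 reads, none in the strongest 20%. Crtac1 and Mob3b had 7 each, with highest folds of 14.3 and 11.8. Diaph3, a formin of actin assembly, had 6 (highest fold 16.02), as did Rbfox2, a splicing factor gene, Cd47, Nid1, Gm4868 and the Hippo gene Amotl1 (highest fold 7.78).

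Genes with the most 96h-only regions were Etl4 with 9, Dusp4 and Zfp608 with 6, Tbl1xr1 and Fgfr2 with 5, and Irs2, Nphp4, Sulf1, Abr and Sgk1 with 4. At Dusp4, which encodes a phosphatase of MAP kinases and is a target of ERK signalling, 2iL had 1 region, 79695 bp from the gene, with a fold of 3.23 and 58 reads. At 96 h it had 7, of which 2 lay inside the gene (chr8:34811990-34813824, fold 5.34 with 52 reads, and chr8:34814171-34815870, 3.83 with 51 reads). The strongest of the other 96h-only regions, 97884 bp away (chr8:34709254-34710242), had 6.48 with 57 reads. At Fgfr2, an FGF receptor gene, the single 2iL region (chr7:130253221-130253872) had a fold of 6.95 with 41 reads and was shared, at 4.04 with 40 reads. The 96h-only regions there had folds of 2.23 to 6.46, with the highest at chr7:130262009-130262618 (62 reads). At Irs2, an insulin receptor substrate gene, all 3 regions of 2iL were shared, and a 96h-only region 908 bp from the gene (chr8:10981234-10984587) had a fold of 7.33 and 65 reads.

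Some genes had regions in both lists at different positions. They were chosen after their values were seen. Abr, a regulator of small GTPases on chromosome 11, had 7 regions in 2iL, with folds of 3.31 to 6.99, and 4 at 96 h, with folds of 2.81 to 6.13, and none of them overlapped. Pou3f1, which encodes the formative factor OCT6, had 1 region in 2iL by nearest gene (fold 4.77) and 3 others at 96 h, the highest 171599 bp away (chr4:124485258-124486672, fold 9.61, 85 reads). Rtl1, an imprinted retrotransposon-derived gene on chromosome 12, had 3 regions in 2iL at 103119 to 276928 bp (folds 4.97 to 6.26). At 96 h it had 3 others, 2 of them inside the gene, with folds of 6.03 and 6.72.

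Other genes had nearly all of their regions in both lists, and these too were chosen after their values were seen. At Sox5, a SOX family factor gene on chromosome 6, 10 of 11 regions of 2iL were called at 96 h. The strongest (chr6:144272695-144274083) had a fold of 14.8 with 181 reads and then 22.3 with 190 reads. At Plpp3, a lipid phosphatase gene on chromosome 4, 8 of 9 were called again. The order of strength there was not the same, since the strongest 2iL region (chr4:105289437-105290618) had folds of 24.0 and 7.89 and another (chr4:105223619-105224872) 14.2 and 21.8. At Klf6, a Krüppel-like factor gene on chromosome 13, 8 of 10 were called again, most of them over 90 kb from the gene. Magi1, a junction scaffold gene, did not share nearly all of its regions. It had the largest number in 2iL among the genes named here, 27, of which 10 were called again and 17 were 2iL-only. Over all 2iL regions 35% were called again.

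**Figure D4:**
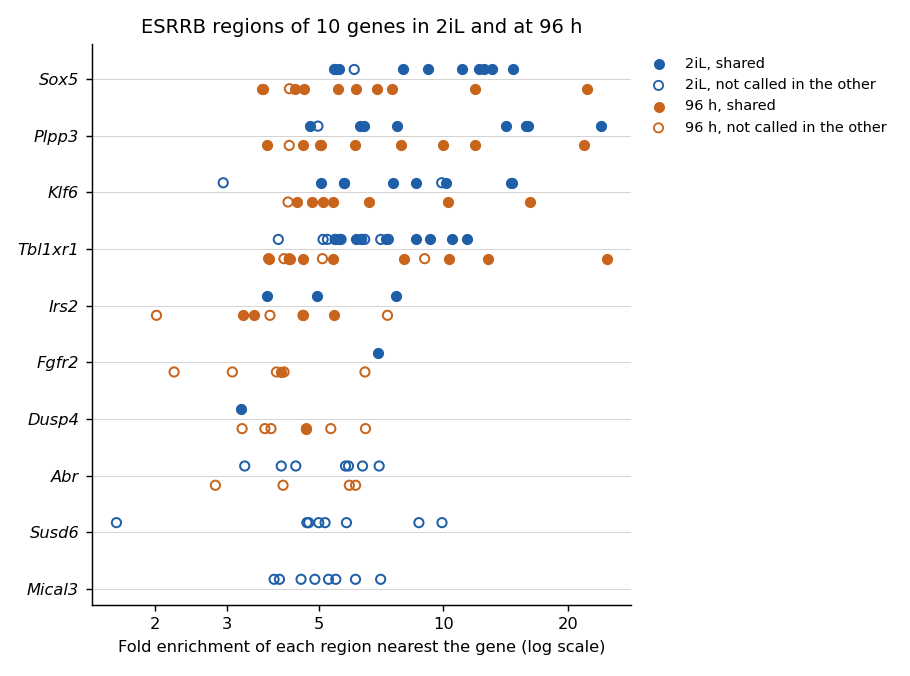
Fold enrichment (x axis, log scale) of each ESRRB region nearest to 10 genes (rows), in 2iL (blue, upper points) and at 96 h (orange, lower points), filled where the region was shared and open where it was called in 1 list only. Sox5, Plpp3 and Klf6 have mostly filled points, Fgfr2 and Dusp4 have 1 filled point in 2iL and mostly open points at 96 h, and Susd6 and Mical3 have open 2iL points only.

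Regions near 20 gene lists were then counted against the 35% of all 2iL regions called at 96 h, and against the share of all 2iL regions with the same mix of strength groups. In 14 of the 20 lists the share was above 35%. Near the 34 genes of the respiratory chain and ATP synthase, which carry out oxidative phosphorylation, 40 of 75 regions were called again (53.3%, interval 41.4 to 65.0, against 36.1% for the same strength groups). Their median fold in 2iL was 6.15, against 5.88 over all regions. Of these regions 37 lay at gene ends, where 26 (70.3%) were called again, and of the other 38 it was 14 (36.8%). Over all genes 44.6% of gene-end regions were called again. Regions on the genes themselves included Atp5g3 (folds given above), Atp5o (11.8 and 9.47, 127 and 116 reads), Sdhd (5.90 and 6.89, 103 and 120 reads) and Sdha (14.9 and 8.85, 216 and 131 reads). At Ndufs1, a complex I subunit gene, a region 4.62 kb away had folds of 8.61 and 13.0. Lower ranks at 96 h were seen at Cox7c (folds of 15.4 and 4.82) and Ndufs3 (folds of 9.16 and 2.34). Over all 4618 one-to-one pairs the fold was higher at 96 h in 25.9%, so a lower fold at 96 h was the more common case. Ndufa9, Cycs, Cox5b and Atp5g1 had a 2iL region and none at 96 h, which is 12.5% of the 32 genes with a 2iL region, where 36.6% of all such genes had none.

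Genes of the tricarboxylic acid cycle and fatty acid oxidation were nearer to the share of all regions, with 27 of 68 regions called again (39.7%, 28.0 to 52.3). Here 27 lay at gene ends, as in the respiratory list a large part, and 12 of these (44.4%) were called again. The region 12.0 kb from Idh2, the mitochondrial isocitrate dehydrogenase gene, had folds of 13.8 and 16.3 (242 and 253 reads). Suclg2, a succinate ligase subunit gene, had a 96h-only region inside it (fold 7.74, 52 reads) and none in 2iL. Vdac1, a channel gene of the outer mitochondrial membrane, had 6 regions in 2iL, none of them called again, and 1 other at 96 h. For glycolysis and the pentose phosphate pathway it was 38 of 80 (47.5%, 36.2 to 59.0, against 38.0% for the same strength groups). At gene ends 11 of 15 (73.3%) were called again, and elsewhere 27 of 65 (41.5%). The regions at the ends of Eno1 (17.5 and 15.6, 296 and 317 reads) and Ldhb, a lactate dehydrogenase gene (15.9 and 17.7, 155 and 228 reads), were strong in both lists. At Pdk4, which encodes a kinase that restrains pyruvate dehydrogenase, a region 349 bp from the gene had folds of 5.57 and 11.7 (104 and 157 reads). Pgam1 had 3 regions in 2iL and none at 96 h, and Pkm 1 and none.

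Nuclear receptor coregulators, the proteins that receptors recruit to activate or repress genes, had 27 of 58 regions called again (46.6%, 33.3 to 60.1). Ncoa3, which encodes a coactivator that ESRRB binds, had 7 regions in 2iL, of which 6 were shared. The strongest, 11.2 kb away, had a fold of 14.7 with 160 reads and then 30.1 with 233 reads. Inside Tbl1xr1, a subunit gene of the NCOR corepressor complex (chr3:22121341-22123015), the fold was 10.5 with 139 reads and then 24.8 with 169 reads, at the 88.5 and the 99.7 percentile of the lists. The region near Crebbp, an acetyltransferase gene, had 14.3 and 12.1, and Ppargc1b had a region in 2iL only. For nuclear receptors themselves it was 27 of 72 (37.5%, 26.4 to 49.7). The region 285 bp from Esrra, which encodes the related receptor, had folds of 13.2 and 9.51 (215 and 193 reads). At Nr0b1, a naive network gene, the strongest region had 15.0 and 3.94 (143 and 26 reads), and at Rora 16.5 and 4.82 (116 and 32 reads). Ppard, a fatty acid sensing receptor gene, had 6 regions in 2iL but not 1 at 96 h, the highest at a fold of 9.09.

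For the pathways that 2iL acts on, intervals of the shares overlap. Near FGF and ERK genes, the pathway blocked by PD0325901, 41 of 85 regions were called again (48.2%, 37.3 to 59.3, against 35.3% for the same strength groups), and 19 of 61 regions of 96 h were 96h-only (31.1%, beside 30.5% of all). Map2k1, which encodes the kinase MEK1, had a region with folds of 12.0 and 17.2 (159 and 117 reads). Etv4, an ERK-responsive factor gene, had 13.4 and 15.4 (129 and 163 reads), and all 5 regions near Spred2, an inhibitor gene, were shared. Near Spry1, a Sprouty inhibitor gene, the folds were 5.75 and 10.8 (72 and 83 reads). Near Spry2, another Sprouty gene, they were 15.4 and 7.70. Fgfr1, Fgfr3, Frs2, Hras, Dusp6 and Etv1 had 2iL regions and none at 96 h. They are 21.4% of the 28 genes of this list with a 2iL region, where 36.6% of all such genes had none. Near WNT genes, the pathway that CHIR99021 activates, 19 of 69 were called again (27.5%, 17.5 to 39.6, against 34.0% for the same strength groups), with an interval that includes 35%. It was the lowest of the 20 shares here, but autophagy genes were lower within 10 kb (24.2% against 25%) and germ layer factors at equal list lengths (36.4% against 39.4%). Axin2, a direct WNT target gene, had 4 regions in 2iL but not 1 at 96 h (highest fold 8.33, 51 reads). Wnt3, a ligand gene, had 2 and none (9.86, 100 reads), and Dvl3, a Dishevelled gene, 3 and none. By gene, 8 of the 27 WNT genes with a 2iL region had none at 96 h (29.6%, beside 36.6% of all). The strongest region near Tcf7l1, a repressor gene of the pathway, had a fold of 18.4 with 165 reads and was 2iL-only. Near Sp5, another direct target gene, the folds were 12.7 and 4.53 (145 and 30 reads). Wnt7b, a ligand gene, had 7.42 and 7.59 (75 and 82 reads). The difference between the lists was not tested.

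LIF and STAT3 genes had 20 of 59 regions called again (33.9%, 22.1 to 47.4). The region 1.46 kb from Il6st, which encodes the LIF co-receptor gp130, had folds of 10.6 and 17.1 (153 and 123 reads), and a region inside Lifr, the receptor gene, 20.3 and 15.4 (132 and 138 reads). Pim3, a kinase gene, had 5 regions in 2iL that were not called again and 2 others at 96 h. For the TGF beta superfamily it was 24 of 71 (33.8%, 23.0 to 46.0). None of the 4 regions near Acvr1b, an activin receptor gene, was called at 96 h (highest fold 15.6, 168 reads). The same held for the 4 near Bmp4, a ligand gene (11.2, 67 reads). By gene, 8 of the 26 genes of this list with a 2iL region had none at 96 h (30.8%, beside 36.6% of all). A region inside Ski, a SMAD repressor gene, had folds of 26.05 and 7.43 (194 and 100 reads), and one near Smad6, an inhibitory SMAD gene, 7.78 and 11.2 (93 and 78 reads). For Hippo, Notch and Hedgehog genes it was 26 of 62 (41.9%, 29.5 to 55.2). Inside Hey2, a Notch target gene, the folds were 14.2 and 23.6 (127 and 273 reads). Notch2, a receptor gene, had a 96h-only region 5972 bp away (fold 8.79, 66 reads) and none in 2iL.

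Chromatin regulators had 41 of 101 regions called again (40.6%, 30.9 to 50.8). At Tet1, a DNA demethylation enzyme gene, the strongest region had folds of 19.1 and 4.34 (139 and 33 reads), and near Dnmt1, the maintenance methyltransferase gene, 13.0 in both (156 and 150 reads). Kmt2a, a histone methyltransferase gene, had 3 regions at 96 h that were 96h-only, the highest with a fold of 7.94 and 72 reads. Cell cycle and Myc genes had 22 of 56 (39.3%, 26.5 to 53.2). Near Mycn, a Myc family gene, the folds were 10.3 and 11.4 (149 and 105 reads). Ccnd2, a cyclin gene, had 2 regions in 2iL but not 1 at 96 h. Autophagy and lysosome genes had 16 of 52 (30.8%, 18.7 to 45.1), and 14 of the 26 genes with a 2iL region had none at 96 h (53.8%, beside 36.6% of all). Rptor, an mTOR complex gene, had 4 regions in 2iL but not 1 at 96 h, and the region 4.54 kb from Atg14, an autophagy initiation gene, had folds of 33.3 and 13.4 (248 and 101 reads). Epithelial adhesion and matrix genes had 27 of 68 (39.7%, 28.0 to 52.3). All 4 regions near Cdh1, the E-cadherin gene, and all 5 near Itga6, a laminin receptor gene, were shared, while Dsp, the desmoplakin gene, had 4 in 2iL and none at 96 h.

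Naive pluripotency genes had 40 of 93 regions called again (43.0%, 32.8 to 53.7), genes of pluripotency in general 19 of 40 (47.5%, 31.5 to 63.9) and formative genes 21 of 42 (50%, 34.2 to 65.8). Of the 20 naive genes 19 had a 2iL region, and at 15 of these the strongest one was shared. The same share over all genes is not given here, and 62.2% of all regions in the strongest 20% of 2iL were shared. The folds of the strongest region were 17.9 and 19.9 at Esrrb itself. They were 13.2 and 13.5 near Jam2, a junction adhesion gene, and 15.6 and 12.3 near Klf2, a Krüppel-like factor gene. Lower 96 h values are given above for Tbx3 and Nr0b1. The strongest regions near Klf4, Dppa3, Gbx2 and Dppa4 were 2iL-only. Trophoblast and extraembryonic genes had 14 of 37 (37.8%, 22.5 to 55.2), germ layer factors 7 of 24 (29.2%, 12.6 to 51.1) and genes of other tissues, listed as controls, 10 of 29 (34.5%, 17.9 to 54.3). Near Tfap2c, a trophoblast and germ cell factor gene, 6 of 9 regions were shared, the strongest with folds of 22.0 and 6.97 (197 and 66 reads). Neighbouring genes share regions, so lists are not independent. Examples are the Hadh and Lef1 region (21.9 and 15.5) and the Aldoa, Mapk3 and Tbx6 region (8.31 and 9.46).

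**Figure D5:**
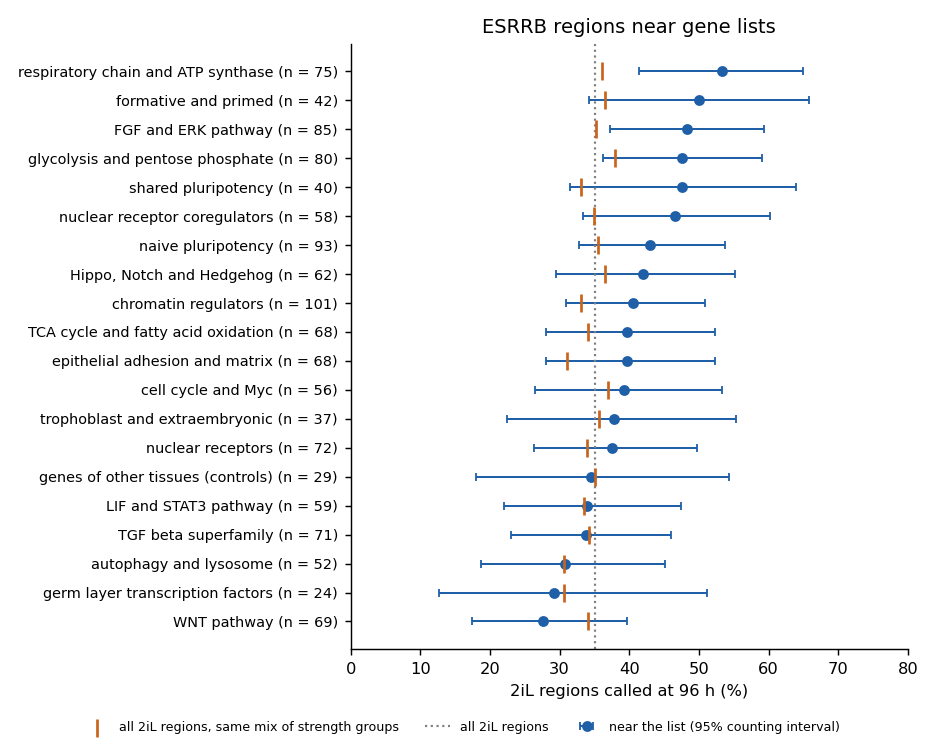
Share of 2iL regions called at 96 h (x axis, %) near each of 20 gene lists (rows, n is the number of 2iL regions), with 95% counting intervals. Orange ticks show all 2iL regions with the same mix of strength groups and the dotted line all 2iL regions (35%), and the list shares run from 27.5% for WNT genes to 53.3% for the respiratory chain.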

How the data were processed

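ESRRB ChIP-seq peak lists of 1 library in 2iL and 1 at 96 h were used. The list of 48 h served only for a total, and the 3 input libraries were not used here. Per the submitters' processing notes, bcl2fastq 2.20.0.422, BWA, SAMtools, Picard and MACS2 were used with build mm10. Neither their roles, other versions nor the threshold for calling was stated in what was used here. The deposited fold is a ratio of reads to background at the summit, each with a pseudocount of 1. The deposited p-value and q-value are on the −log10 scale. The deposited score is capped at 1000 and was not used for any comparison. The deposited summit offset is in bp.

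Reads at the highest summit of each region were recovered from fold and p as whole numbers within 0.05, for 100% of regions. Total read counts were not used here. Regions were ranked by fold within a list, since the folds were made per library, and cut into 5 groups. Overlaps were computed with Python 3.11.15, pandas 2.3.3 and SciPy 1.17.1. The overlap code was checked on simulated regions with a known number of overlaps, and against bedtools 2.31.1 on the regions of both lists. Genes came from RefSeq on GRCm38.p6 as spans of 21883 protein-coding genes, so exons, introns and UTRs were not told apart. Gene lists held 561 genes in 584 entries, and all matched. The members, lists and rules were chosen with earlier results of these data known.

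Named genes were those nearest the 10 strongest 2iL-only and 96h-only regions, the 10 shared pairs of highest summed percentile, the 10 that moved most in percentile each way, the 10 genes with the most 2iL regions and none at 96 h or with the most 96h-only regions, and list members with the most, all shared, all 2iL-only or 96h-only regions. Some of these are not reported here, and other list members named in the text were picked with their values known. The alternatives were q at 1e-05, lists of equal length, stricter or looser overlap, ranking by p, and windows of 10 kb or nearest gene. With 1 library per condition no library could be left out and no test was run.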

Additional observations from a re-analysis of the deposited data

How the results depend on the processing

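The share of 2iL regions called at 96 h was 47.8% with both lists cut to equal length by fold, 29.0% with overlap of at least 50% of both regions, 32.4% with summits within 200 bp and 36.5% with 2iL regions extended by 1 kb. The share of 96 h regions called in 2iL was 48.7%, 56.8%, 63.7% and 71.0% in those settings, and 71.9% with q of at most 1e-05. Ranked by p, 67.2% of the strongest 20% of 2iL and 94.7% of the strongest 20% of 96 h were shared. At equal lengths the directions were nearly alike, by construction of the lists. The list shares stayed within their counting intervals for 20 of 20 lists with the q limit, 19 with a 10 kb window (naive genes went from 43.0% to 57.7%) and 7 at equal lengths, where the share of all 2iL regions moved too. In each setting 14 or more of 20 lists lay above the share of all 2iL regions. Genes with a 2iL region and none at 96 h numbered 3287 within 10 kb and 3153 by nearest gene. At the 10th percentile, reads at the summit were 39 for shared and 30 for 2iL-only regions in 2iL, and 31 for shared and 25 for 96h-only regions at 96 h. How far depth set the calls was not tested. No paired analysis was possible because each condition had 1 library.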

Other observations

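The share of 2iL regions called at 96 h was 38.7% on chromosome 8, 38.2% on X, 29.5% on chromosome 14 and 28.7% on chromosome 12. Among chromosomes with a 2iL region, the share of 96h-only regions was 36.1% on chromosome 12, the highest, and 26.1% on chromosome 5, the lowest. The Y chromosome had 3 regions, all 96h-only. Among fold ratios of the 4618 one-to-one pairs, the fold was higher at 96 h in 1198 (25.9%), with a median log2 ratio of -0.39 between folds that were each taken over their own background.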
